A study of Mus musculus with 3 samples.

Results

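The 43 DNA replication genes described here encode the proteins that license and fire replication origins, unwind and copy DNA, supply deoxynucleotides and restore chromatin on the copied strands. They were taken by symbol from the deposited count matrices, which hold 31053 genes, and all 43 were found there. Epidermal cells of the ear were taken at 9 weeks of age from mice of the inbred strain C57BL/6N, with no treatment or allele named in the labels, and form 1 group of 3 single-cell RNA libraries, replicates 1 to 3. Epidermis was lifted off with dispase, and trypsin with EDTA then released the cells, which were frozen before use, per the labels' protocols. The sources used here do not give the sex of the mice, nor whether each library is a different animal. The p-values therefore measure only the spread between libraries, which may be technical. With a single group, the comparisons are between cell classes inside the same libraries: they ask in which layer, and in which proliferative state, epidermal cells hold transcripts of the replication machinery.

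The epidermis is renewed from its basal layer, where keratinocytes rest on the basement membrane, express the keratins Krt5 and Krt14 and divide. Cells that leave this layer switch to Krt1 and Krt10 (spinous cells) and later load their envelope with loricrin, the product of Lor (granular cells). In every dividing cell the origin recognition complex with Cdc6 and Cdt1 loads the ring of Mcm proteins onto DNA in G1, and geminin blocks reloading later. In S phase Cdc45 and the GINS complex turn the loaded Mcm ring into the active helicase, polymerases alpha, delta and epsilon copy the strands on the sliding clamp PCNA, and histone genes are transcribed to package the copies. Cyclin E with its kinase and the E2F transcription factors drive the entry into S phase, and many replication genes are textbook E2F targets.

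Because E2F sites are the best known shared element of these promoters, sequences were examined first. Promoter windows from 250 bases before to 50 bases after the start (RefSeq, build GRCm38.p6) were matched by symbol for 36 of the 43 genes, in 44 windows. An E2F motif was counted where a window held TTTCCCGC, TTTCGCGC, TTTGCCGC or TTTGGCGC on either strand. Of the 36 genes 16 (44.4%) held a match, against 412 of 8364 genes tested for expression (4.93%) and 704 of all 27025 genes of the table (2.6%). A second list of 43 replication genes held it in 8 of 31 (25.8%) and a list of mitosis genes in 1 of 12 (8.33%). The CCAAT box (letters CCAAT, either strand) was in 58.3% of the replication genes and 42.7% of the genes tested. It was in 51.6% of the second replication list and 91.7% of the mitosis list. The CHR element of G2 and mitosis promoters (TTTGAA, either strand) was in 13.9% and 14.2%, against 75% of the mitosis list. The 23 E2F matches lay on both sides of the start: 9 began at or after it and 5 within the last 100 bases before it. A match is a description of letters, and a window without one says nothing about the factor.

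Mcm6, a subunit of the helicase ring, is printed from 150 bases before to 25 after its start because it held the most matches, with matched letters in capitals, beside Pola2, the regulatory subunit of polymerase alpha, a gene without a match whose levels across the layers stand apart in the comparisons that follow:
Mcm6, GRCm38.p6 chr1:128359681-128359855, minus strand: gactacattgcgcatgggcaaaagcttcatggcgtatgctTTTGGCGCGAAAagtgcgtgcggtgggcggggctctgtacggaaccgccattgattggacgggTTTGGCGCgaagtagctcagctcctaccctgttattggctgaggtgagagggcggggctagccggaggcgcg
Pola2, GRCm38.p6 chr19:5964182-5964356, minus strand: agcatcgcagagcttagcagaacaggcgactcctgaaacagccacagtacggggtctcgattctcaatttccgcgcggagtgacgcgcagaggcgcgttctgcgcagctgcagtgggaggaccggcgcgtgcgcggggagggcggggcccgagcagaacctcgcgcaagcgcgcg

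The matches of Mcm6 began 110, 106 and 47 bases before the start, the first 2 overlapping on opposite strands. The same back-to-back arrangement was found in Mcm5, 153 and 149 bases before the start. For Mcm5, Rfc3 (a clamp loader subunit), Pclaf (a PCNA-binding factor), Hells (a chromatin remodeller that acts with DNA methylation) and Cdc6 (the loader of the Mcm ring) the 30 bases around the match are shown, since these genes carry results described with the layers:
Mcm5, GRCm38.p6 chr8:75109347-75109376, plus strand: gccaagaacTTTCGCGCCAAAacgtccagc
Rfc3, GRCm38.p6 chr5:151651195-151651224, minus strand: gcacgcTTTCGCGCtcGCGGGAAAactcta
Pclaf, GRCm38.p6 chr9:65890307-65890336, plus strand: gcttggagcgcGCGGGAAAgagacccattt
Hells, GRCm38.p6 chr19:38930917-38930946, plus strand: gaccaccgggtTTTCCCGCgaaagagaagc
Cdc6, GRCm38.p6 chr11:98908002-98908031, plus strand: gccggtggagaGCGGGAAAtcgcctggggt

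Rfc3 held matches on opposite strands at 10 bases before the start and at the start itself. In Pclaf the match began 5 bases before the start, in Hells 62 and in Cdc6 138. These distances are from the RefSeq start. In the GENCODE M21 annotation Pclaf, Hells and Cdc6 begin further upstream, so their matches lie inside the annotated genes. Among the 7 genes printed only Pola2 was without a match, which follows from how they were chosen. Pcna, Mcm2, Rrm2, Tk1, Slbp and Cdc45, among others, held no match either.

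The libraries held 1108, 2477 and 2493 barcodes, of which 944, 2212 and 2184 passed filters of at least 500 genes and at most 10% mitochondrial counts, with median depths of 14569.5, 9237.5 and 11282 UMIs (unique molecular identifiers, each a captured transcript). Scrublet marked 30 of the 5340 kept cells as doublets, and 16 barcodes occurred in 2 libraries, 11 of them kept. Cells were placed by the share of their UMIs from layer keratins. Basal cells held at least 0.5% Krt5 and Krt14 and less than 0.5% Krt1 and Krt10, transitional cells at least 0.5% of both, spinous cells only the second pair, and granular cells at least 1% Lor. Basal cells with 20 or more UMIs of the histone genes Hist1h1b, Hist1h2ap and Hist1h2ae are called histone-high, the others histone-low. Replicates 1, 2 and 3 gave 42, 43 and 84 histone-high basal, 427, 904 and 887 histone-low basal, 31, 68 and 97 transitional, 360, 918 and 823 spinous and 57, 163 and 205 granular cells, and 231 cells met no rule. Of the marker lists fixed for these classes, 7 basal markers summed to 3135 to 3354 CPM (UMIs of a gene or list for every 1000000 UMIs of its class and library) in histone-low basal and 60.4 to 74.2 in granular cells, and 8 granular markers to 25980 to 37980 in granular and 154 to 340.1 in spinous cells. The 6 spinous markers summed to 23770 to 26010 in spinous and to 38790 to 42570 in granular cells, so they do not mark the spinous class against the granular one. Markers of other cell types moved with the layers too. The T cell list summed to 262 to 308 CPM in histone-low basal cells, 325 to 432 in histone-high basal and 3.07 to 4.39 in spinous cells, with Cd3e, Cd3d, Trdc and Nkg7, but not Cd3g, Trac and Thy1, at 0 in the histone-high cells. The follicle list summed to 376 to 552.6 CPM in histone-low basal, 253 to 436 in histone-high basal (Cd34 and Lgr5 at 0), 170 to 255 in transitional (Cd34, Lgr5 and Krt79 at 0), 13.6 to 50.1 in spinous (Cd34 at 0) and 42.1 to 77.2 in granular cells (Lgr5 and Lhx2 at 0). Single genes could make up such sums. In 12 histone-high basal cells with few mitosis transcripts, Thy1 alone of the T cell list had UMIs, at 236 to 398 CPM. Postn alone of the follicle list had UMIs there, at 318 to 607 CPM. The share of single genes in the other sums was not counted. Without cells that held 0.2% or more of their UMIs in markers of other cell types, all 43 genes were still higher in histone-high and 38 still lower in spinous than in histone-low basal cells.

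Transcripts of the 43 genes were most abundant in the histone-high basal cells and lowest in the granular cells. Their summed level was 5482, 5303 and 5743 CPM in the histone-high basal cells of replicates 1 to 3, and 1021, 839.5 and 1311 in the histone-low basal cells. Transitional cells held 696, 828 and 659.7, spinous cells 322, 317 and 285, and granular cells 252, 178 and 183. No library of one class reached a level of the class before it in this order, except that the transitional and histone-low basal ranges came close (828 against 839.5). The classes differ in depth, with pooled medians of 16000 UMIs per cell in histone-high and 8131 in histone-low basal cells, 15047 in spinous and 19882 in granular cells, so the per-cell counts were repeated after thinning every cell to 3000 UMIs. At that depth 140 of 161 histone-high basal cells (86.96%) held 10 or more UMIs of the 43 genes, against 15 of 390, 20 of 808 and 72 of 802 histone-low basal cells of replicates 1 to 3, 4 of 172 transitional cells, 1 of 2033 spinous and 0 of 401 granular cells, the last of which allows a share of up to 0.916% (exact 95% binomial limit, counting error only). Unthinned, the shares were 97.0%, 22.4%, 23.0%, 8.23% and 4.94% in the same order of classes. The median thinned histone-high cell showed 12 of the 43 genes, and the median histone-low cell 2.

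**Figure D1:**
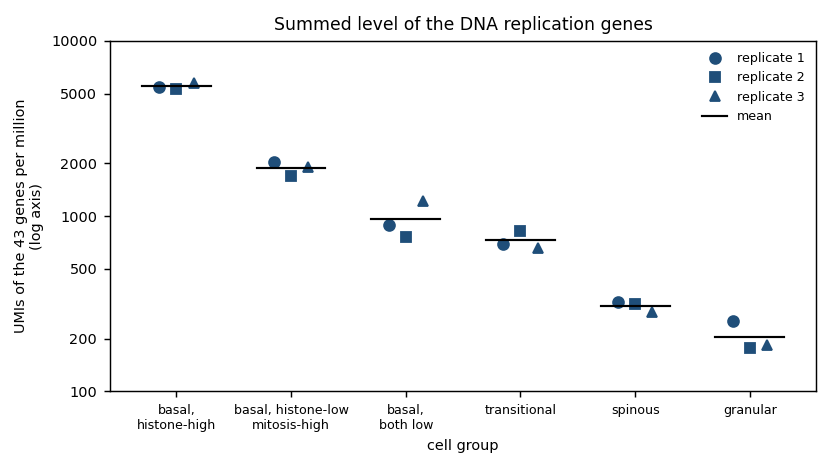
Summed UMIs of the 43 DNA replication genes in CPM (log axis) in 6 groups of cells, with a symbol for each replicate library and a line at the mean of 3. Histone-high basal cells sit between 5303 and 5743, and granular cells between 178 and 252.

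**Figure D2:**
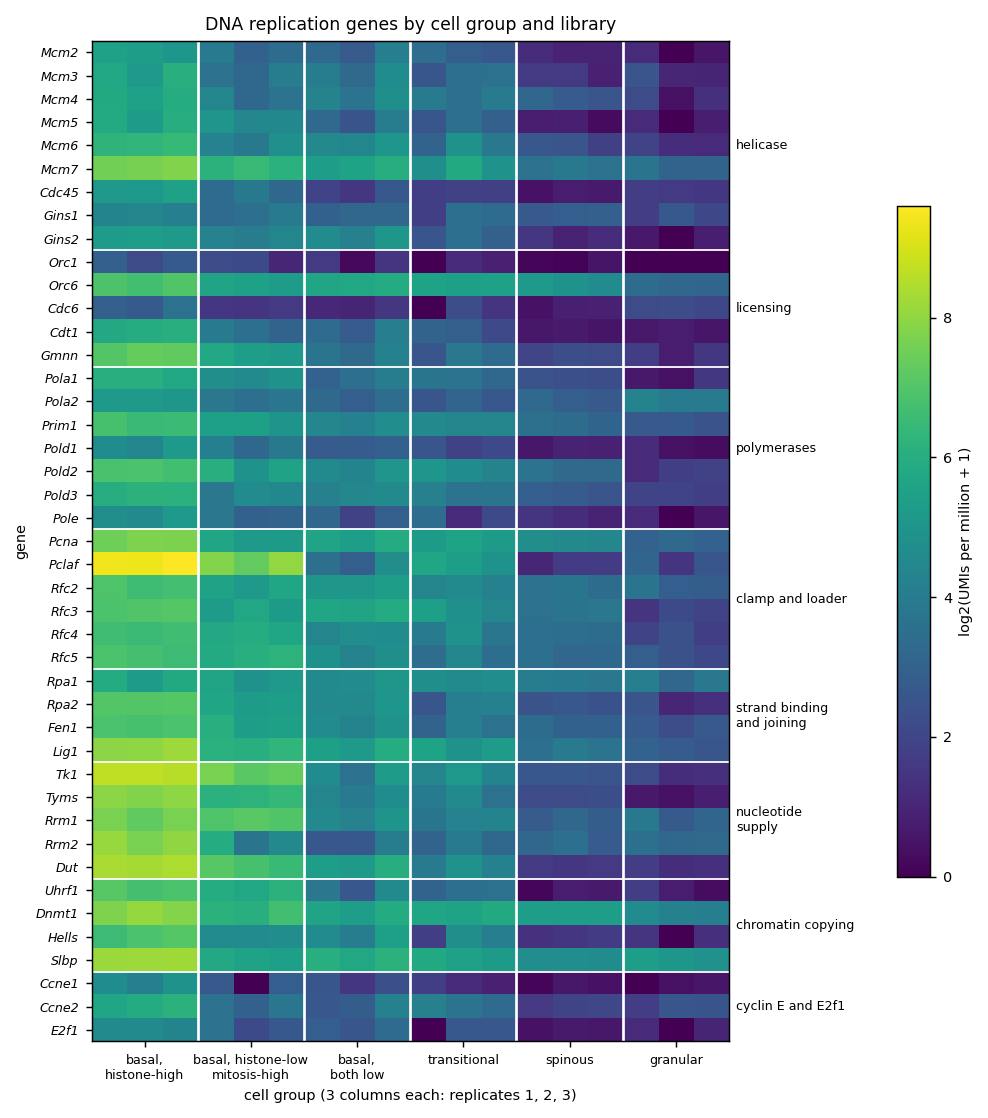
Level of each of the 43 genes as log2(CPM + 1), with 3 columns per cell group for replicates 1 to 3 and rows grouped by role. Rows are to be read across: every gene has its highest class mean in the 3 histone-high columns, and Orc6, Pcna, Dnmt1 and Slbp keep visible levels in the spinous columns.

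Histone transcripts mark cells in S phase, and the first comparison asks which replication genes accompany them in the basal layer. All 43 genes were higher in histone-high than in histone-low basal cells, by a median of 2.12 on the log2 scale, against a median of -0.10 over all 10655 genes tested, of which 16.2% were called higher and 30.6% in either direction. No library of one class overlapped the other for any of the 43. Overlap of libraries was not counted over all genes tested, here or in the later comparisons, so it has no background share. Calls rest on edgeR's quasi-likelihood test with library as a block, at an adjusted p under 0.05 after Benjamini-Hochberg adjustment over all genes tested, and each difference is on the log2 scale with its standard error (SE). The histone genes that split the cells are not among the 43.

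All 9 helicase genes rose, by a median of 1.75. Mcm2 (GRCm38 chr6:88883474-88898780, positions from GENCODE M21), part of the hexameric ring, stood at 43.9, 40.9 and 31.7 CPM in the histone-high cells of replicates 1 to 3 and at 9.29, 5.82 and 15.8 in the histone-low cells, a difference of 1.86 (SE 0.28, adjusted p = 1.22e-05). Mcm6 (chr1:128331590-128359664) stood at 75.5, 78.1 and 86.4 against 21.5, 19.6 and 31.5, a difference of 1.75 (SE 0.22, adjusted p = 6.95e-07). Replicate 3 had the highest histone-low level of both genes, still under every histone-high library. The largest rise of the group was that of Cdc45, which joins the ring to form the active helicase: 36, 33.5 and 43.6 against 3.51, 2.91 and 5.68, a difference of 3.24 (SE 0.25, adjusted p = 1.53e-10). Mcm5 followed with 57.5, 37.2 and 61.8 against 11.2, 6.13 and 16.6 and 2.24 (SE 0.25, adjusted p = 1.77e-07). At the other end, Gins2, a subunit of the GINS complex, rose least of all 43, by 0.61 (SE 0.22, adjusted p = 0.0356), with 37.2, 40.9 and 34.9 against 23.3, 16.9 and 31.6. Mcm3, Mcm4, Mcm7 and Gins1 rose by 1.73, 1.58, 1.98 and 1.22.

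The 5 licensing genes all rose. Gmnn, which encodes geminin, had 131, 159.9 and 150.5 CPM against 16.7, 11.9 and 20.0, a difference of 3.19 (SE 0.15, adjusted p = 3.24e-14). Cdc6 was sparse, with 23 UMIs in all histone-high and 27 in all histone-low cells, or 6.76, 5.58 and 11.1 against 1.24, 1.07 and 1.89 CPM, and its difference was 2.57 (SE 0.46, adjusted p = 0.000128). Cdt1, the partner of Cdc6 in loading, rose by 2.54, and the origin-binding subunits Orc1 and Orc6 by 1.87 and 1.21.

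Of the polymerase genes all 7 rose. Pola1, the catalytic subunit of polymerase alpha, had 64.2, 63.2 and 53.9 against 9.29, 11.5 and 17.3 CPM, a difference of 2.23 (SE 0.21, adjusted p = 1.06e-08). Pole, the catalytic subunit of polymerase epsilon, had 25.9, 22.3 and 35.6 against 8.47, 3.06 and 6.63, a difference of 2.28 (SE 0.31, adjusted p = 2.73e-06). Pola2, the primase subunit Prim1 and the polymerase delta subunits Pold1, Pold2 and Pold3 rose by 1.98, 2.10, 2.04, 2.05 and 1.77.

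The clamp, its binding factor and its loader rose in all 6 genes. Pclaf, whose small protein binds PCNA, had the steepest rise of the group, with 675, 653 and 778 CPM against 34.7, 19.8 and 56, 19.8-fold on the fitted scale, a difference of 4.31 (SE 0.17, adjusted p = 1.28e-15). Pcna itself (chr2:132249162-132253314) had 177, 216 and 211 against 47.5, 40.1 and 56.4, a difference of 2.09 (SE 0.13, adjusted p = 3.7e-12). Its value carries the uncertainty that the genome holds the processed copies Pcna-ps1 and Pcna-ps2, whose reads the authors' counting could split from it. The loader subunits Rfc2, Rfc3, Rfc4 and Rfc5 rose by 1.61, 1.33, 1.94 and 1.89.

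Single-strand binding and strand joining genes rose in 4 of 4. Lig1, the ligase that seals lagging-strand fragments, had 247, 253 and 290.0 against 45.6, 37.5 and 63.2 CPM, a difference of 2.47 (SE 0.13, adjusted p = 2.03e-13), and Rpa2, a subunit of the single-strand binding complex RPA, 132, 130.2 and 132 against 25, 23.1 and 33.3, a difference of 2.29 (SE 0.15, adjusted p = 1.14e-11). Fen1, the flap nuclease, rose by 2.12, but Rpa1, the large RPA subunit, by only 0.95 (58.6, 39 and 56.2 against 25.6, 24.1 and 32.9).

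Nucleotide supply showed the largest median of the roles, 3.23 over 5 genes, all higher. Rrm2, the subunit of ribonucleotide reductase that is made anew in S phase, had 280.5, 203 and 258 CPM against 11.4, 5.82 and 16.6, 22.2-fold, a difference of 4.47 (SE 0.20, adjusted p = 1.17e-14). This was the largest of the 43. Tk1, the S-phase thymidine kinase, had 409, 411 and 379.5 against 44.4, 22.7 and 52.9, a difference of 3.36 (SE 0.17, adjusted p = 5.21e-14). The large reductase subunit Rrm1 rose less, by 2.43, and Tyms (thymidylate synthase, with a processed copy, Tyms-ps) and Dut (the dUTPase) by 3.23 and 2.68.

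The chromatin group holds Uhrf1 and Dnmt1, which copy DNA methylation onto the new strand, Hells, and Slbp, the stem-loop binding protein of histone mRNA, and all 4 rose. Uhrf1 had 136, 108 and 116 CPM against 18.4, 9.34 and 28.8, a difference of 2.68 (SE 0.21, adjusted p = 2.39e-10). Slbp had 284, 294 and 297 against 62.8, 52.7 and 66.5, a difference of 2.29 (SE 0.10, adjusted p = 1.17e-14). Of the S-phase entry regulators, Ccne1 had 24.8, 16.7 and 28.5 against 4.96, 1.69 and 4.33, a difference of 2.74 (SE 0.33, adjusted p = 5.18e-07). Ccne2 had 50.7, 59.5 and 70.5 against 5.78, 6.13 and 17.2, a difference of 2.65 (SE 0.24, adjusted p = 3.68e-09). E2f1 rose by 1.64, and Dnmt1 and Hells by 2.16 and 2.12.

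The rest of the pathway was read from lists of further replication genes, G1/S control genes and mitosis genes. Of the 43 further replication genes 36 were higher and 1 lower. Esco2, which establishes cohesion behind the fork, averaged 212 CPM in histone-high and 8.56 in histone-low cells (difference 4.65, SE 0.18, adjusted p = 9.74e-16), Mcm10, a helicase activator, 24.6 and 1.58 (3.99), and Clspn, a fork checkpoint factor, 184 and 11.6 (3.98). The lower gene was Pold4, the small subunit of polymerase delta, at 29.7 against 46.7, a difference of -0.61 (SE 0.17, adjusted p = 0.00944). Of 14 control genes 10 were higher and Cdk6, a G1 kinase, lower, at 29.4 against 44.6 (difference -0.55, SE 0.18, adjusted p = 0.0211). The atypical repressors E2f7 and E2f8 rose by 4.03 and 3.15 and the S-phase cyclin Ccna2 by 3.07. All 14 mitosis genes were higher as well, with a median of 2.61, and 157 of the 169 histone-high basal cells held 10 or more UMIs of that list.

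To separate histone from mitosis transcripts, basal cells were split a second time, by 10 or more UMIs of the mitosis list. Histone-high mitosis-high cells numbered 40, 36 and 81 in replicates 1 to 3, histone-low mitosis-high cells 39, 65 and 79, and cells low in both 388, 839 and 808. Histone-high cells without mitosis transcripts numbered only 2, 7 and 3 and were not tested. Summed over the 43 genes, the histone-low mitosis-high cells held 2048, 1682 and 1896 CPM, between the 5438, 5289 and 5740 of the histone-high mitosis-high cells and the 891, 757 and 1226 of the cells low in both. The mitosis genes define this split and are not counted as results of it. Orc1 and Cdc6 fell under the filter on low counts here: Orc1 had 14, 5 and 21 UMIs and Cdc6 21, 4 and 23 in histone-high mitosis-high, histone-low mitosis-high and both-low cells. Orc1 stood at 5.71, 3.87 and 5.68 CPM in the histone-high mitosis-high libraries, 3.67, 3.44 and 1.06 in the histone-low mitosis-high and 2.09, 0.168 and 1.71 in the both-low ones. Cdc6 stood at 6.86, 5.8 and 9.74, 1.83, 1.72 and 2.12 and 1.16, 1.01 and 1.86 in the same order. For both genes all histone-high mitosis-high libraries were above all others.

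Against the cells low in both, the histone-low mitosis-high cells had part of the set raised: 21 of the 41 genes tested were higher and 3 lower, with a median of 0.48, where 18.1% of all 7929 genes tested were higher, 14.3% lower and 32.4% called in either direction. With the same reference, the histone-high mitosis-high cells had all 41 higher, with a median of 2.19 and a background of 23.1% higher and 43.6% in either direction. Both comparisons share the both-low cells as their reference, so the cycling groups were also compared directly: 39 of 41 genes were lower in the histone-low mitosis-high cells, by a median of -1.73, where 10.8% of all genes were lower, 6.81% higher and 17.6% called in either direction. Gins1 and Rpa1 were the 2 that did not pass, with differences of -0.78 (adjusted p = 0.136) and -0.57 (adjusted p = 0.0777).

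By role, nucleotide supply was above the both-low cells in 5 of 5 genes in the histone-low mitosis-high cells. Tk1 stood at 204, 139 and 159 CPM in replicates 1 to 3 against 24.2, 11.3 and 37.4 in the both-low cells, a difference of 2.62 (SE 0.22, adjusted p = 4.39e-10). Rrm1 stood at 123, 141 and 128 against 23, 18.2 and 30.4, a difference of 2.29 (SE 0.15, adjusted p = 1.77e-12). For both genes every mitosis-high library was above every both-low library. Among the clamp genes Pclaf stood at 224, 155 and 261 against 10.7, 6.56 and 26.1, a difference of 3.72 (SE 0.20, adjusted p = 4.67e-14), the largest of the 41, and the loader subunit Rfc5 at 56.9, 65.3 and 72.1 against 27.2, 18.5 and 26.7, a difference of 1.31 (SE 0.17, adjusted p = 1.41e-06). Every library of Pclaf and Rfc5 was above the both-low cells, but those of Pcna overlapped. Pcna had 49.5, 36.1 and 37.1 against 47.2, 40.5 and 59.2 and did not pass, with a difference of -0.45 (SE 0.18, adjusted p = 0.0619). The methylation genes Uhrf1 and Dnmt1 and the licensing gene Gmnn were higher without overlap. Uhrf1 stood at 60.6, 53.3 and 71 against 13, 5.04 and 22.6, a difference of 2.04 (SE 0.26, adjusted p = 7.94e-07). Dnmt1 stood at 71.6, 63.6 and 104 against 48.4, 40.9 and 59.7, a difference of 0.58 (SE 0.16, adjusted p = 0.00788). Gmnn stood at 53.2, 41.3 and 36 against 12.1, 9.08 and 17.7, a difference of 1.54 (SE 0.24, adjusted p = 1.36e-05).

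The helicase group had 3 of 9 genes above the both-low cells. Cdc45 stood at 9.18, 13.8 and 8.48 against 2.79, 1.85 and 5.27, a difference of 1.41 (SE 0.43, adjusted p = 0.0144). Mcm5 stood at 31.2, 20.6 and 21.2 against 8.61, 4.71 and 16, a difference of 1.09 (SE 0.30, adjusted p = 0.0067), and Mcm7 was higher by 0.42. Neither ring subunit followed throughout did so. Mcm2 stood at 14.7, 6.88 and 9.54 against 8.61, 5.72 and 16.7, a difference of -0.22 (SE 0.42, adjusted p = 0.734) that did not pass. Mcm6 stood at 18.4, 13.8 and 27.6 against 21.9, 20.2 and 32.1, a difference of -0.42 (SE 0.22, adjusted p = 0.155) that did not pass. The libraries of both genes overlapped between the groups. Mcm3, Mcm4 and Gins2 had differences of -0.59, -0.71 and -0.61 that did not pass (adjusted p = 0.101, 0.0619 and 0.0724). Cyclin E and E2f1 passed in 0 of 3, with differences of 0.10, -0.11 and -0.29 for Ccne1, Ccne2 and E2f1. The 2035 both-low cells of the reference include 87 cells rich in replication transcripts, which are described further on. Those 87 cells held 4338 of the 16238 replication UMIs of the reference. They held 174 of its 346 UMIs of cyclin E and E2f1 and 874 of its 2822 helicase UMIs. The part of these cells in the differences from both-low cells, for any role, was not tested.

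Of the polymerase genes 4 of 7 were higher, and of the strand genes 3 of 4. Pola1 stood at 25.7, 22.4 and 29.7 CPM against 7.21, 10.4 and 15.5, a difference of 1.06 (SE 0.28, adjusted p = 0.00399). Pold1 stood at 16.5, 8.6 and 13.8 against 5.82, 5.88 and 6.67, a difference of 0.90 (SE 0.34, adjusted p = 0.0435). No library overlapped for either polymerase gene, nor for Fen1 and Rpa2. Fen1 stood at 66.1, 41.3 and 43.5 against 24, 18.5 and 29.1, a difference of 0.88 (SE 0.19, adjusted p = 0.000928). Rpa2 stood at 49.5, 37.8 and 39.2 against 21.9, 21.7 and 32.4, a difference of 0.55 (SE 0.20, adjusted p = 0.0342), which was not kept at a thinned depth. The 3 lower genes were an origin subunit, a loader subunit and the histone mRNA factor. Slbp stood at 55, 46.4 and 41.3 against 63.8, 53.3 and 70.2, a difference of -0.57 (SE 0.16, adjusted p = 0.00618). Rfc3 stood at 38.5, 51.6 and 37.1 against 50.5, 48.4 and 59.7, a difference of -0.50 (SE 0.17, adjusted p = 0.0227). Orc6 stood at 47.7, 44.7 and 38.1 against 50.7, 51.6 and 58.6, a difference of -0.48 (SE 0.16, adjusted p = 0.0206). The libraries of the groups overlapped for Slbp and Rfc3, and without replicate 3 the count of lower genes was 0. The cycling cells were deeper (pooled medians of 10455 UMIs in histone-low mitosis-high and 8009 in both-low cells). With every cell thinned to 3000 UMIs 13 genes were higher and 1 lower, and with a mitochondrial limit of 5% 11 were higher and 4 lower.

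Set directly against the histone-high mitosis-high cells, Rrm2, Slbp, Cdt1 and Ccne2 differed most. Rrm2 had 60.6, 12 and 22.3 CPM in the histone-low and 279, 203 and 256 in the histone-high mitosis-high cells, a difference of -3.23 (SE 0.28, adjusted p = 1.12e-08). Replicate 1 gave the highest histone-low value. Slbp had 55, 46.4 and 41.3 against 286, 298 and 300.2, a difference of -2.82 (SE 0.14, adjusted p = 4.36e-13). Cdt1 had 14.7, 10.3 and 7.42 against 50.3, 63.8 and 65.7, a difference of -2.71 (SE 0.35, adjusted p = 3.92e-06). Ccne2 had 11, 6.88 and 12.7 against 49.1, 58 and 65.7, a difference of -2.66 (SE 0.34, adjusted p = 4.2e-06). Hells had 23.9, 24.1 and 25.4 against 92.6, 118 and 134, a difference of -2.41 (SE 0.25, adjusted p = 1.38e-07). Pcna had 49.5, 36.1 and 37.1 against 178, 213 and 213, a difference of -2.49 (SE 0.17, adjusted p = 1.55e-10). Mcm2 had 14.7, 6.88 and 9.54 against 42.3, 42.6 and 31.6, a difference of -2.04 (SE 0.41, adjusted p = 0.000775). Mcm6 had 18.4, 13.8 and 27.6 against 75.4, 79.3 and 86, a difference of -2.10 (SE 0.22, adjusted p = 1.38e-07). No histone-low library of these 3 genes reached a histone-high one. Rrm1 fell by 0.69. Of the further replication genes 30 of 42 tested were lower, among them Donson, a helicase assembly factor (-3.46, from 3 UMIs in the histone-low cells), Exo1 (-2.77) and Wdhd1 (-2.52), and 0 were higher. Against the both-low cells, 15 of the 42 were higher in histone-low mitosis-high cells, with Esco2, Dbf4 (the activator of the origin-firing kinase Cdc7) and Asf1b (a histone chaperone) at 69.8, 112 and 94.5 CPM against 1.07, 5.55 and 6.96, and Pold4 and Pole4 were lower by 0.45 and 0.37. Of the control genes Ccna2 was at 269 against 2.88, E2f7 at 9.77 against 0.672 and E2f8 at 27.2 against 3.09, all higher, and the G1 kinase gene Cdk4 was lower, at 113 against 166.

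**Figure D3:**
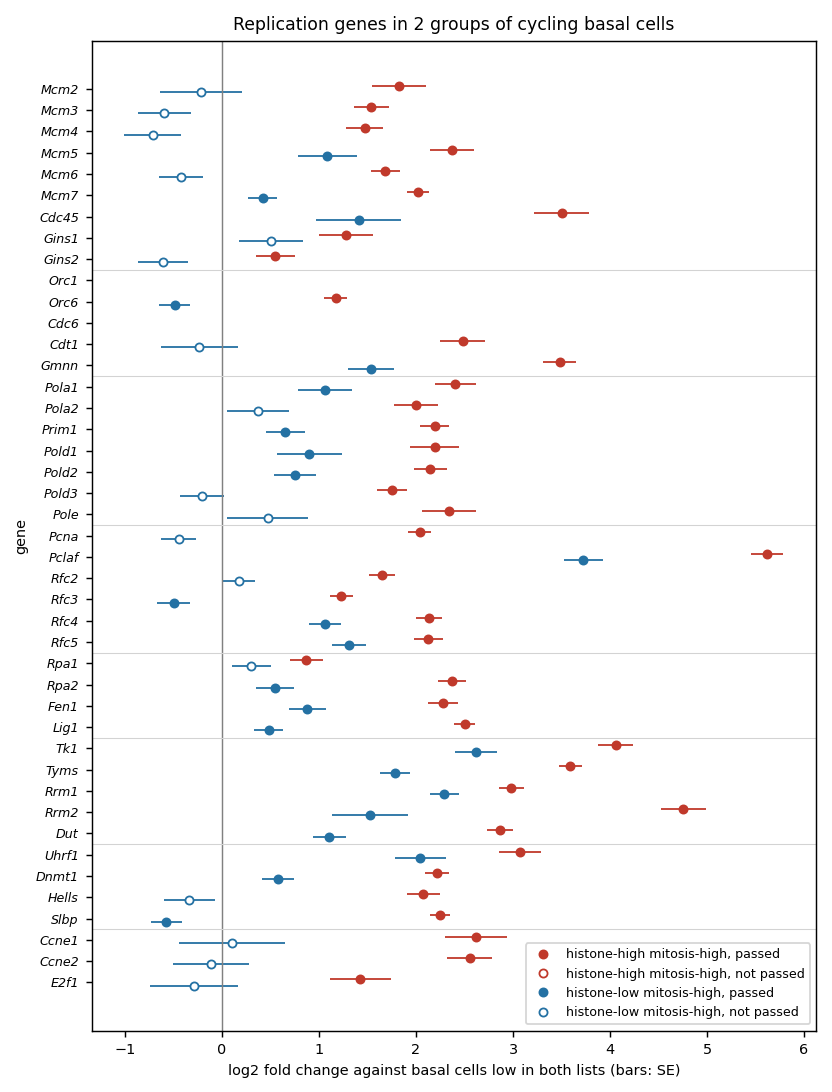
Log2 fold change of each replication gene against basal cells low in both lists, for histone-high mitosis-high (red) and histone-low mitosis-high (blue) basal cells; points are fitted values, bars their SE, filled where the adjusted p is under 0.05, and Orc1 and Cdc6 were not tested. All red points lie above 0, while the blue points of Slbp, Rfc3 and Orc6 are filled and below 0.

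Among the basal cells low in both lists, some held replication transcripts at a high level. After thinning to 3000 UMIs, 9 of 355, 15 of 754 and 63 of 732 such cells (2.54%, 1.99% and 8.61%) had 10 or more UMIs of the 43 genes, so replicate 3 gave most of them. These 87 cells were picked by the summed level of the 43 genes, so their levels are a description with no test. Pooled, they held Mcm2 at 83.7, Mcm5 at 91.1, Mcm6 at 130.3, Gins2 at 136, Hells at 224, Ccne2 at 92.2 and E2f1 at 56.2 CPM, each above its level in every histone-high basal library. Pclaf at 176, Tk1 at 184, Tyms at 97.5, Rrm2 at 106 and Gmnn at 86.9 were below every histone-high library. The 3 histone genes of the split summed to 161 and the mitosis list to 199 CPM in them, against 14010 to 15590 and 4619 to 5447 in histone-high mitosis-high cells. A follicle marker list summed to 1812, 385 and 599.8 CPM in these cells of replicates 1 to 3 and to 377 to 569.6 in the libraries of all both-low cells, and basal markers to 3012 against 3180 to 3350. The part of follicle cells was not tested.

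The make-up of the replication transcripts also differed between these groups. Helicase genes took 18.8, 20.2 and 20.5% of the UMIs of the 43 genes in those cells of replicates 1 to 3, 10.3, 9.99 and 10.8% in histone-high basal cells and 9.95, 11 and 10.4% in histone-low mitosis-high cells. Nucleotide supply took 15.2, 17.9 and 15.8%, 26.8, 24.5 and 24.9% and 29, 28.2 and 25.5% in the same order. In spinous cells nucleotide supply was 7.65, 9.16 and 7.9%, and chromatin genes, led by Dnmt1 and Slbp, took 20.6, 21.4 and 23.8%, against 15.3, 14.5 and 15.3% in histone-low basal cells. These shares are descriptions over 3 libraries without a test.

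**Figure D4:**
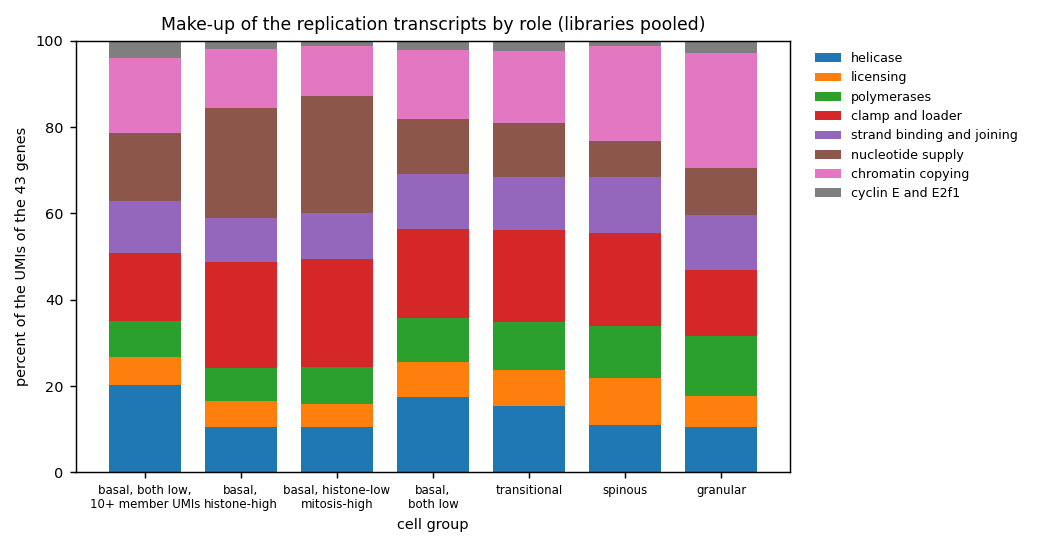
Percent of the UMIs of the 43 genes that fall to each role in 7 groups of cells, libraries pooled; bars add up to 100%. Helicase genes take 20.2% in the both-low basal cells with 10 or more replication UMIs and 10.4% in histone-high basal cells, and nucleotide supply takes 25.5% in the latter and 8.34% in spinous cells.

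Transitional cells hold basal and suprabasal keratins together, and comparing them with histone-low basal cells asks what changes as cells leave the basal layer. The 2218 histone-low basal cells held 20121 UMIs of the 43 genes. Of these UMIs 3883 lay in the 183 mitosis-high cells and 4338 in the 87 both-low cells picked by their replication transcripts. The part of these cells in the differences from histone-low basal cells was not tested. The 4 layer comparisons that follow share groups with each other, so each stands on its own values. Of the 43 genes 8 were lower and 0 higher, with a median of -0.62, where 8.07% of all genes were lower and 22.0% called in either direction. Gins2 fell most, from 23.3, 16.9 and 31.6 CPM in replicates 1 to 3 of the basal cells to 4.87, 10.4 and 6.75, a difference of -1.61 (SE 0.35, adjusted p = 0.00132). Dut went from 51.4, 41.2 and 65.6 to 14.6, 29.8 and 17.7, a difference of -1.26 (SE 0.22, adjusted p = 0.000154). Rrm1 went from 34.3, 29.1 and 42.9 to 12.2, 18.1 and 19.4, a difference of -0.95 (SE 0.27, adjusted p = 0.0113). For each of these genes all 3 transitional libraries were below all 3 basal ones. Of the clamp loader, Rfc3 had 41.4, 27.2 and 20.2 against 49.1, 48.7 and 56.8, a difference of -0.91 (SE 0.19, adjusted p = 0.000885). Rfc5 had 9.73, 20.7 and 10.1 against 30.6, 22.7 and 32.5, a difference of -0.98 (SE 0.28, adjusted p = 0.0115). Rfc2 differed by -0.80. Of the strand genes Fen1 and Rpa2 were lower, without overlap. Fen1 had 7.3, 16.8 and 11 against 28.7, 20.5 and 31, a difference of -1.04 (SE 0.28, adjusted p = 0.00735). Rpa2 had 4.87, 16.8 and 17.7 against 25, 23.1 and 33.3, a difference of -0.80 (SE 0.28, adjusted p = 0.0438). Pcna and the ring subunits Mcm2 and Mcm6 did not pass, and their libraries overlapped. Pcna had 36.5, 46.6 and 36.3 against 47.5, 40.1 and 56.4, a difference of -0.21 (SE 0.20, adjusted p = 0.511). Mcm2 had 9.73, 6.48 and 5.06 against 9.29, 5.82 and 15.8, a difference of -0.64 (SE 0.47, adjusted p = 0.375). Mcm6 had 7.3, 28.5 and 13.5 against 21.5, 19.6 and 31.5, a difference of -0.44 (SE 0.34, adjusted p = 0.413).

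This count rests on few cells and on single libraries. It was 0 without replicate 3 and 16 without replicate 2. Histone-high cells made up 6 of the 196 transitional cells, 3 of them marked as doublets, and held 374 of the 1707 replication UMIs of the class. Without histone-high cells outside the basal class the count was 20 of 43, with a median of -0.91. Of the further replication genes 2 fell, Pole2, a subunit of polymerase epsilon (2.8 against 9.38 CPM, difference -1.60, SE 0.49, adjusted p = 0.0213), and Dtymk, the thymidylate kinase (39.9 against 110.5, difference -1.38, SE 0.17, adjusted p = 6.76e-07). Among the control genes E2f2, the retinoblastoma gene Rb1 and Cdk6 rose, by 1.78, 1.30 and 0.60, and 8 of 14 mitosis genes fell.

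From transitional to spinous cells 25 of 43 genes fell and 0 rose, with a median of -1.22, against 16.7% of all genes lower and 36.9% called in either direction. Pclaf went from 48.7, 40.1 and 29.5 CPM in the transitional libraries to 1.06, 2.21 and 2.15 in the spinous ones, a difference of -3.88 (SE 0.43, adjusted p = 1.45e-07). Uhrf1 went from 7.3, 10.4 and 11 to 0.133, 0.712 and 0.614, a difference of -3.79 (SE 0.68, adjusted p = 8.85e-05). Mcm5 went from 4.87, 10.4 and 6.75 to 0.665, 0.791 and 0.23, a difference of -3.37 (SE 0.66, adjusted p = 0.000239). Each of these was at 2.21 CPM or less in every spinous library. Dut went from 14.6, 29.8 and 17.7 to 2.13, 1.9 and 2.0, a difference of -3.06 (SE 0.34, adjusted p = 1.29e-07). Cdt1 went from 7.3, 6.48 and 3.37 to 0.532, 0.633 and 0.461, a difference of -2.81 (SE 0.66, adjusted p = 0.00151). Hells went from 2.43, 25.9 and 16 to 1.6, 1.9 and 2.15, a difference of -2.73 (SE 0.48, adjusted p = 8.42e-05). All spinous libraries were below all transitional ones for these 6 genes. Mcm2 and Mcm6 fell by 2.29 and 1.78 (adjusted p = 0.00549 and 0.00184), Tk1, Lig1, Rpa2, Ccne2 and E2f1 by 1.94, 1.25, 1.36, 1.65 and 2.54, and Pold1, Gmnn, Pold2 and Rfc3 by 1.68, 1.09, 0.93 and 0.80. Pcna did not pass (36.5, 46.6 and 36.3 against 25.5, 21.9 and 20.8, difference -0.50, SE 0.20, adjusted p = 0.0596). Rrm2 and Dnmt1 had differences of -0.02 and -0.02. The count was 8 with keratin thresholds of 1%, which left 10 and 22 transitional cells of replicates 1 and 3 and none of replicate 2 in the fit, and 8 with every cell thinned to 3000 UMIs. Thinning turned Ccne2 to 0.21 and the keratin thresholds of 1% turned Pold2 to 0.47, neither called. Histone-high cells made up 3 of 2101 spinous and 6 of 196 transitional cells. Those of the transitional class, 3 of them marked as doublets, held 374 of its 1707 replication UMIs. In that class 5 of 6 histone-high and 10 of 190 histone-low cells held 10 or more UMIs of the mitosis list. The fall without the histone-high cells is not given here. The part of the mitosis-high cells in it, and in the fall of the mitosis genes, was not tested.

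All 14 mitosis genes fell at this step, with a median of -3.85, and of the further replication genes 18 fell and 1 rose. Esco2 averaged 9.12 CPM in transitional and 0.392 in spinous cells and Asf1b 10.1 and 0.839. Mcm10 had 4 UMIs in transitional and 2 in spinous cells. Pole3, a histone-fold subunit of polymerase epsilon that also belongs to a chromatin remodelling complex, was the gene that rose, from 68.2 to 80.0 (difference 0.63, SE 0.14, adjusted p = 0.00117). Of the control genes Ccna2 fell from 19.1 to 0.617 and E2f8 from 9.76 to 1.48, and E2f7 had 5 UMIs in transitional and 0 in spinous cells. Rb1, E2f2 and Cdk6 rose by 0.93, 0.69 and 0.41.

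Across the whole step from histone-low basal to spinous cells, 38 of the 43 genes fell and 0 rose, with a median of -1.74. The basal reference again includes the mitosis-high cells and the both-low cells rich in replication transcripts, whose part in the fall was not tested. In this comparison most genes of the cell changed, 34.2% lower and 70.7% in either direction, with a median of 0.01 over all genes. Uhrf1 fell furthest, from 18.4, 9.34 and 28.8 CPM to 0.133, 0.712 and 0.614, a difference of -4.64 (SE 0.34, adjusted p = 1.24e-11). Dut went from 51.4, 41.2 and 65.6 to 2.13, 1.9 and 2.0, a difference of -4.32 (SE 0.17, adjusted p = 9.19e-17). In the helicase group Mcm5 went from 11.2, 6.13 and 16.6 to 0.665, 0.791 and 0.23, a difference of -3.89 (SE 0.35, adjusted p = 5.75e-10). Gins2 went from 23.3, 16.9 and 31.6 to 1.86, 0.949 and 1.31, a difference of -3.78 (SE 0.23, adjusted p = 2.44e-13). For these 4 genes no spinous library reached a basal one. Mcm2 reached 1.33, 0.87 and 0.921, a difference of -2.93 (SE 0.32, adjusted p = 1.33e-08). Mcm6 reached 5.05, 4.82 and 2.53, a difference of -2.22 (SE 0.22, adjusted p = 3.08e-09). Cdt1 and Orc1 fell by 3.81 and 1.98, Pclaf and Rfc3 by 3.84 and 1.71, Rpa2 and Lig1 by 2.16 and 1.59, Tk1 by 2.58, Hells by 3.41, and E2f1 and Ccne1 by 3.18 and 2.69. Orc1 had 26 UMIs in histone-low basal and 8 in spinous cells, with overlapping libraries. Of the polymerase genes Pold1 and Pole fell by 2.67 and 1.74, and the median of the 7 was -1.24.

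The differences of Pcna, Orc6 and Rpa1 were smaller than the median, and 5 genes did not pass the test. Pcna went from 47.5, 40.1 and 56.4 to 25.5, 21.9 and 20.8 CPM, a difference of -0.70 (SE 0.12, adjusted p = 1.59e-05), and Orc6 and Rpa1 fell by 0.49 and 0.52. The 5 genes that did not pass come from 5 roles. Gins1 had 7.23, 8.12 and 8.79 in basal against 5.45, 6.33 and 6.76 in spinous cells, a difference of 0.004 (SE 0.18, adjusted p = 0.989). Pola2 had 9.09, 6.74 and 10.3 against 8.78, 6.56 and 5.38, a difference of 0.01 (SE 0.18, adjusted p = 0.974). Rrm2 had 11.4, 5.82 and 16.6 against 7.98, 10.3 and 5.68, a difference of -0.12 (SE 0.24, adjusted p = 0.675). These fits scale the classes to each other, so a difference near 0 can stand beside lower spinous CPM. Dnmt1 had 51, 42.9 and 65.3 against 39.8, 40.3 and 40.1, a difference of -0.02 (SE 0.11, adjusted p = 0.901). Cdc6 had 1.24, 1.07 and 1.89 against 0.399, 0.791 and 0.845, a difference of -0.60 (SE 0.42, adjusted p = 0.208). Scaling to total UMIs in place of TMM moved the median of all genes to -0.38 and raised the count of lower genes to 40. Of the further replication genes 33 fell, among them Dtymk from 110.5 to 5.81 (-3.86), Exo1 from 2.09 to 0.0699 with 2 UMIs left, and Dscc1 from 2.67 to 0.0783 with 3. Pole3 was the exception, at 80.0 against 63 (0.73). Among control genes E2f2, Rb1 and Cdk6 rose by 2.47, 2.23 and 1.01 and E2f4 by 0.26, the last reversed by scaling to total UMIs, while Ccna2 fell by 5.10 and E2f7 had 0 UMIs in spinous cells.

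Granular cells, the last nucleated layer, showed changes in both directions. Of the 43 genes 9 were higher and 7 lower than in spinous cells, with a median of -0.09, in a comparison where 70.6% of all genes were called, 32.0% higher and 38.6% lower. The share called, 16 of 43, lies under that background. Fitted differences here are relative to TMM scaling, under which the median of all genes was -0.195. With scaling to total UMIs that median was -0.96, 5 of the 43 were higher and 21 lower, and the higher share of all calls went from 45.4% to 22.5%. Differences are therefore given beside the unscaled levels in CPM.

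Cdc6 was the gene with the largest rise: 0.399, 0.791 and 0.845 CPM in spinous and 3.56, 3.85 and 3.2 in granular cells, from 24 and 30 UMIs, a difference of 3.0 (SE 0.43, adjusted p = 1.46e-06). Cdc45 had 0.399, 0.712 and 0.614 against 2.38, 2.1 and 1.97, from 20 and 18 UMIs, a difference of 2.50 (SE 0.47, adjusted p = 4.65e-05). Pola2 had 8.78, 6.56 and 5.38 against 18.4, 14.7 and 14.3, from 219 and 131 UMIs, a difference of 1.97 (SE 0.19, adjusted p = 2.7e-09), and its granular libraries were also above every histone-low basal library (9.09, 6.74 and 10.3). The sparse Cdc6 was likewise above its histone-low basal level in every granular library. Slbp had 24.9, 24.9 and 24.8 against 40.4, 32.6 and 27.9, a difference of 1.14 (SE 0.13, adjusted p = 3.03e-08). In these 4 genes all granular libraries were above all spinous ones, and total-UMI scaling left them called, with differences of 2.23, 1.73, 1.21 and 0.38 for Cdc6, Cdc45, Pola2 and Slbp. Thinning to 3000 UMIs left Pola2 and Slbp called, put Cdc45 at 2.45 (adjusted p = 0.0828) and Cdc6 under the filter on low counts. Pclaf had 1.06, 2.21 and 2.15 against 7.72, 1.75 and 4.93 with overlapping libraries, a difference of 1.93 (SE 0.54, adjusted p = 0.00278). It fell to 0.79 (adjusted p = 0.449) without the histone-high cells outside the basal class, 4 of them granular, and to 1.11 (adjusted p = 0.161) without granular cells that held 0.5% or more Krt5 and Krt14. Rrm1, Rrm2, Ccne2 and Rpa1 were called higher, by 1.05, 0.97, 1.34 and 0.48, but not with total-UMI scaling, which turned Rpa1 to -0.29, nor with every cell thinned to 3000 UMIs, which gave 0.70, 0.86, -0.09 and 0.04 (adjusted p = 0.219, 0.167, 0.944 and 0.938). Their libraries overlapped between the layers (Rpa1 15.7, 15.1 and 13.5 against 16, 8.06 and 13.3).

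The 7 lower genes were spread over 5 roles. Tyms went from 3.59, 3.64 and 3.92 CPM in spinous to 0.594, 0.35 and 0.739 in granular cells, a difference of -1.90 (SE 0.56, adjusted p = 0.00418), with 5 UMIs left. Rfc3 went from 11.2, 11.9 and 12.9 to 1.78, 3.5 and 2.96, a difference of -1.29 (SE 0.27, adjusted p = 0.000167). Rfc4 went from 10.2, 10.2 and 9.45 to 2.97, 4.2 and 2.46, a difference of -0.88 (SE 0.28, adjusted p = 0.00714). Pcna went from 25.5, 21.9 and 20.8 to 7.12, 8.76 and 7.15, a difference of -0.79 (SE 0.21, adjusted p = 0.00224). Rfc3, Rfc4 and Pcna were lower in every granular library than in every spinous one. Pold2 went from 11.6, 9.02 and 8.91 to 1.19, 2.45 and 2.71, a difference of -1.28 (SE 0.35, adjusted p = 0.00237). Mcm4 went from 8.11, 5.69 and 4.84 to 3.56, 0.35 and 1.48, a difference of -1.23 (SE 0.46, adjusted p = 0.0205). Orc6 went from 34.3, 28.6 and 24 to 9.5, 8.06 and 7.89, a difference of -1.0 (SE 0.18, adjusted p = 3.95e-05). All granular libraries were below all spinous ones for these 7. Mcm2 had 1.33, 0.87 and 0.921 against 1.19, 0 and 0.493, with 4 granular UMIs, and did not pass, with a difference of -0.35 (SE 0.88, adjusted p = 0.736). Mcm6 had 5.05, 4.82 and 2.53 against 2.97, 1.4 and 1.23, with 14, and did not pass, with a difference of -0.53 (SE 0.56, adjusted p = 0.406). Orc1 had 8 UMIs in spinous and 0 in granular cells. Of the further replication genes 6 were higher and 10 lower, the last including Orc5 at 0.793 against 7.65 (difference -2.84, SE 0.51, adjusted p = 2.77e-05). The higher ones included the fork protection gene Timeless (1.32 against 0.434, 14 and 16 UMIs, difference 2.41, SE 0.69, adjusted p = 0.00325), Chaf1b (1.05), Atad2 (1.05) and Pold4 (0.56, reversed with total UMIs), while Mcm10 rested on 4 and 2 UMIs. Among control genes Cdk6 and Tfdp1, the partner of E2F proteins, fell by 2.28 and 2.20. Ccna2 rose (1.71 against 0.617, from only 14 and 23 UMIs, difference 1.96, SE 0.63, adjusted p = 0.00829), and E2f4 and Rb1 rose by 0.61 and 0.45, both reversed with total UMIs. Mitosis genes moved beside them, 9 of 14 higher and 0 lower, with Cdc20 at 8.31 against 1.34 and Tpx2 at 2.23 against 0.331 CPM. Cells with 10 or more UMIs of the mitosis list were 2 of 4 histone-high and 5 of 421 histone-low granular cells. Among spinous cells they were 3 of 3 and 3 of 2098. The mitosis genes were not followed under the alternative settings, and the part of these few cells in their rise was not tested. Of the 425 granular cells 8 also met the basal and 2 the transitional keratin rule, 1 was marked as a doublet, and the part of cells with mixed content was not tested beyond the counts given.

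**Figure D5:**
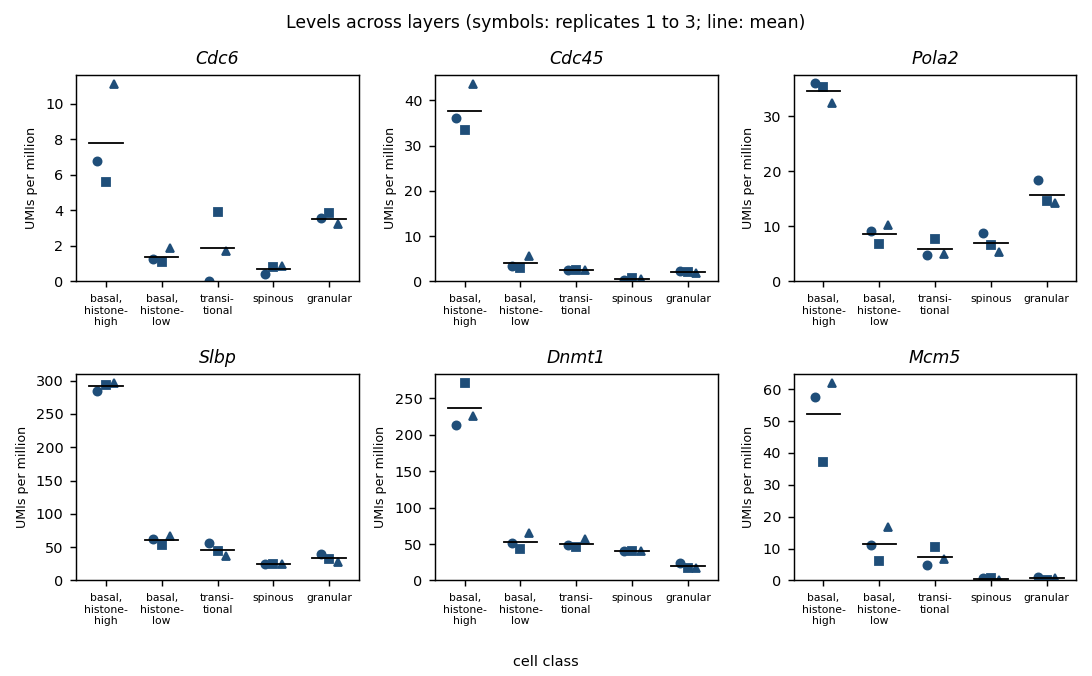
CPM of 6 genes in 5 cell classes, with a symbol for each replicate and a line at the mean of 3; each axis starts at 0 and has its own range. Cdc6, Cdc45, Pola2 and Slbp are higher in granular than in spinous cells in all 3 replicates, Dnmt1 lies at 39.8 to 40.3 in spinous and 16.5 to 23.8 in granular cells, a difference that did not pass the fitted test, and Mcm5 stays at 1.19 or less in both.

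Some values carry limits of the counting. Of the 43 genes 14 have an exon that overlaps a gene on the other strand in GENCODE M21, among them Mcm7 (Ap4m1 and Cops6), Cdc45 (Ufd1), Rfc4 (Eif4a2), Tk1 (Afmid) and Slbp (Gm10459). Such overlaps matter only if counting ignored strand, which the sources used here do not state. Mcm7 also carries the microRNA genes Mir25 and Mir93 on its own strand. Histone-high cells made up 8.96%, 4.54% and 8.65% of basal cells in replicates 1 to 3, so replicate 2 gave fewest.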

How the data were processed

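Single-cell RNA was captured from 3 ear epidermis libraries with a 10x V(D)J kit that reads transcript 5′ ends and read on a HiSeq X instrument (the labels' protocols). The authors deposited raw UMI counts per gene and cell, made with Cell Ranger 3.1.0 on mm10, per the submitters' processing notes. A cell was kept if it showed 500 or more genes and no more than 10% mitochondrial counts. Doublets marked by Scrublet (scanpy 1.11.5) were kept and left out in an alternative.

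Counts were summed per library and class (at least 10 cells) and fitted with edgeR 4.0.16 (R 4.3.3): TMM, filterByExpr, quasi-likelihood test, library as a block, Benjamini-Hochberg adjustment over all genes tested, threshold 0.05. Layers and basal phases were fitted separately, and the fit was tested on simulated data. Each library gives every class, so library pairs the profiles by construction. Deviations of same-numbered profiles correlated at 0.116 to 0.416 across 5255 genes. Shares have exact (Clopper-Pearson) 95% limits, which cover counting error only.

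The members and lists were chosen with earlier results of these data known. The rule named Pcna, Mcm2 and Mcm6, the 2 called genes of each role with the largest change, genes called against the direction of most, and genes not tested. They are given by library or, for part of them, by fitted difference alone, and the histone-high mitosis-high against both-low comparison by its counts and median. From the further lists the 3 largest called changes and up to 6 against the direction of most are named. Other genes named were chosen after their values were seen. Planned comparisons of histone-high mitosis-low basal cells and of histone-high transitional cells could not be fitted, having under 10 cells per library. The comparisons of histone-high mitosis-high cells were added after seeing the data. Alternatives included DESeq2 1.42.0, thinning, other thresholds and leaving out each replicate.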

Additional observations from a re-analysis of the deposited data

Results flagged for a closer look

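The 5 histone-high cells that met no class rule lay outside every comparison and held the replication genes at a summed 5641 CPM (UMIs for every 1000000). This is a signal in data no comparison used, there being no control samples to set it against. All 5 came from replicate 2, 1 was marked as a doublet and all 5 held 10 or more UMIs of the mitosis list. Histone-high basal cells held 5303 to 5743 CPM in the 3 libraries.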

How the results depend on the processing

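Of the named results under 18 alternatives, 3247 values kept direction and side of the threshold, 213 lost their call and 12 reversed. Only results called in the main fit are in this tally. Some alternatives left the compared cells unchanged, such as the histone thresholds in granular against spinous. Part of the kept values could therefore hardly move, and the tally overstates how well the results held. Every cell thinned to 3000 UMIs left 1229 genes of all called in histone-high against histone-low basal cells, 802 in transitional against histone-low basal, 1532 in spinous against transitional, 4327 in granular against spinous, 4209 in spinous against histone-low basal, 1063 in histone-low mitosis-high and 1276 in histone-high mitosis-high against both-low cells, and 374 between the mitosis-high groups. Fewer genes were tested there. Of the replication genes thinning left 3 lower in transitional cells, 8 lower in spinous against transitional, 2 higher in granular, 13 higher and 1 lower in histone-low mitosis-high, 27 higher in histone-high mitosis-high and 23 lower between the mitosis-high groups. Keratin thresholds of 1% gave 8 lower genes and 1616 of all in spinous against transitional, 1060 of all in transitional, and 5 lower in histone-low mitosis-high cells. Scaling to total UMIs gave 5 higher and 21 lower in granular and 1 lower in histone-low mitosis-high cells. It moved the higher share of all calls from 51.6% to 29.9% in spinous against histone-low basal, from 54.7% to 24.8% in spinous against transitional, from 55.9% to 73.1% in histone-low mitosis-high against both-low and from 38.6% to 68.0% between the mitosis-high groups. A mitochondrial limit of 5% gave 11 higher in histone-low mitosis-high, 827 of all between the mitosis-high groups, and a histone-high share of basal cells of 10.2% in place of 7.38%. DESeq2 gave 1 lower and 1693 of all in histone-low mitosis-high and 823 of all between the mitosis-high groups. Histone thresholds of 10 and 40 UMIs gave 7 and 1 lower in histone-low mitosis-high cells. Without histone-high cells outside the basal class 20 were lower in transitional cells. Leaving out each replicate gave 0 to 16 lower genes and 1159 to 1968 of all in transitional, 2617 to 3188 of all in spinous against transitional, 0 to 1 higher in spinous against histone-low basal, 13 to 19 higher and 0 to 4 lower in histone-low mitosis-high, and 757 to 1105 of all between the mitosis-high groups. Reversed values in spinous against transitional were Pold2 0.47, Esco2 4.25 and E2f7 1.52 (keratin 1%) and Ccne2 0.21 (thinned). In granular against spinous they were Ccne2 -0.089 and Rb1 -0.13 (thinned), and Rpa1 -0.29, Pold4 -0.21, E2f4 -0.16 and Rb1 -0.31 (total UMIs). E2f4 reached -0.13 in spinous against histone-low basal (total UMIs) and Rpa2 -0.088 in histone-low mitosis-high cells (thinned). Where nothing else is said, the cause was not tested. Without the replicate block the counts were 42 higher in histone-high basal, 7 lower in transitional, 26 lower in spinous against transitional, 9 higher and 7 lower in granular, 38 lower in spinous against histone-low basal, 18 higher and 3 lower in histone-low mitosis-high, 40 higher in histone-high mitosis-high and 39 lower between the mitosis-high groups. Depth limits Orc1, Cdc6, Cdc45 and Mcm2 in the upper layers, which rest on 33 or fewer UMIs per class. They are not the only ones: Uhrf1, Mcm5 and Cdt1 had lower CPM than Mcm2 in every spinous library, so depth limits their falls too.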
